A study of Mus musculus with 8 samples.

Results

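The cytosolic ribosomal protein genes were defined by symbol, as the Rps and Rpl genes with Rplp0, Rplp1, Rplp2 and Rpsa, leaving out the kinases whose symbols begin with Rps6k and counting only probe sets annotated with 1 symbol. Of 12488 probe sets on the array, 49 met this rule, and they represented 35 genes, 18 of the small and 17 of the large subunit. Each gene is given by its brightest probe set over all 8 arrays. Of the 35 genes, 27 were among the brightest 60% of probe sets and were tested, 14 of the small and 13 of the large subunit, and 8 were too dim to be tested. The filter took the mean over all groups, and the members nearest to it were Rpl38 just inside, with a mean signal of 23.4, and Rpl32 just outside, with 23.3.

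The cells were follicular (FO) B cells sorted from mice, with a B cell receptor that binds hen egg lysozyme (HEL). The receptor was either IgMG, a chimera that combines IgM with the membrane and cytoplasmic portions of IgG1, or IgM itself. There were 4 conditions with 2 arrays each: IgMG cells stimulated with HEL, IgMG cells left unstimulated, IgM cells stimulated with HEL and IgM cells left unstimulated. Every array pooled cells, of 5 to 8 mice for IgMG and of 2 to 4 mice for IgM, so receptor and number of mice pooled cannot be told apart; the labels give neither strain nor age of the mice nor how long stimulation lasted.

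A ribosome is built from ribosomal RNA and one copy each of most ribosomal proteins, which are made in the cytoplasm and joined to the rRNA mainly in the nucleolus. In vertebrates the mRNAs of ribosomal proteins begin with a C followed by a run of pyrimidines, the terminal oligopyrimidine (TOP) motif, and the mTORC1 kinase and the RNA-binding protein Larp1 are known to set how strongly such mRNAs are translated. Lymphocytes stimulated through their antigen receptor are known to grow before they divide and to make more ribosomes.

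Start regions of the members were searched for such a run, which does not by itself place a gene in this class. RefSeq promoter sequences on GRCm38.p6 matched 28 of the 35 genes, with 37 annotated start sites. A C followed by at least 6 further C or T, on the gene's strand and between 15 bases before and 20 bases after the start, was found at 14 of 37 starts (37.8%), in 14 genes, against 5323 of 32851 starts in the whole table (16.2%). The letters CCGGAAG, searched on both strands of the 300-base window, were found at 12 of 37 starts (32.4%), against 2910 of all starts (8.86%); the pyrimidine search and this one can overlap. A match describes letters at an annotated start, which may differ from the start used in B cells. Each line below covers 30 bases before and 20 bases after the start, with a run that met the rule in capitals; the first 4 have one, and the last 4 belong to genes that the results turn on and have none in the searched stretch.
Rps18 (chr17:33955646-33955695, minus strand): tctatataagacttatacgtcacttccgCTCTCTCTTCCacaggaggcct
Rps27 (chr3:90213629-90213678, minus strand): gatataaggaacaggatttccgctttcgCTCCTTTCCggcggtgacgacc
Rps24 (chr14:24490648-24490697, plus strand, 1 of its annotated starts): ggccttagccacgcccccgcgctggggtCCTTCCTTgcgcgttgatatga
Rpl7a (chr2:26910777-26910826, plus strand): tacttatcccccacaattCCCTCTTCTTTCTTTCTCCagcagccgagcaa
Rpl41 (chr10:128549149-128549198, minus strand): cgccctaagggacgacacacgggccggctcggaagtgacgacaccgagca
Rps28 (chr17:33824543-33824592, minus strand): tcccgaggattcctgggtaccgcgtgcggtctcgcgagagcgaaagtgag
Rplp0 (chr5:115559437-115559486, plus strand): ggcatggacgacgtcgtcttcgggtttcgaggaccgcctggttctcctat
Rpl7l1 (chr17:46782637-46782686, minus strand): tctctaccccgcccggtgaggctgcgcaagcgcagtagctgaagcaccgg

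The arrays were checked before the comparisons. Median signal per array was between 40.7 and 47.8. The 7 B cell markers on the array summed to 22770 to 28231 per array and the 5 follicular markers to 2293 to 5132, and 5 of 10 T cell markers stayed under 20 on every array. The lowest follicular sum, 2293, was that of the first unstimulated IgM array, against 5061 on its partner and 3604 to 5132 on the rest. Of these markers Fcer2a had 1099 on that array, against 3434 on its partner. Marginal zone B cell markers summed to 754 to 1433 and T cell markers to 260 to 544. By these markers the B cell label held, while other cells cannot be told apart from expression by the B cells. The number of other cells was not estimated. Egr2, an immediate-early transcription factor gene, had signals of 2505 and 2288 in HEL-treated and 18.2 and 36.1 in unstimulated IgMG cells, and of 3683 and 3692 in HEL-treated and 21.6 and 38.3 in unstimulated IgM cells, so the stimulation labels held too. The 6 erythroid markers summed to 13250 to 21413 per array, which is not small beside the B cell sums, and their source was not tested. Besides the first unstimulated IgM array, 2 arrays stood apart, and only these 2 were left out together as an alternative. The second unstimulated IgMG array had summed myeloid markers of 15822 (2597 on its partner, 2030 to 7096 on the rest) and summed NK cell markers of 2236 (287 on its partner). The second HEL-treated IgM array had the highest ratio of 5′ to 3′ Gapdh signal, a measure of RNA integrity and labelling, at 0.755, against 0.140 to 0.395 on the other arrays. Results that change without both arrays are given with their values below.

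The members covered a wide range of signal and were divided at a mean of 1000, a limit set for description. Tested genes above it are called bright. Mean signals above 1000 were seen in 19 genes, between 1440 and 11241, whose signals on the 8 arrays were between 1162 and 13838. Rpl41, which encodes a very short basic protein of the large subunit, ranked 3 of 12422 probe sets, and Rps28, a small-subunit protein, ranked 10. The highest array over the lowest was 1.43 in the median of these 19 genes and at most 2.82, in Rps19. The 8 other tested genes (Rpl13a, Rps27, Rpl22, Rpl7l1, Rps4l, Rps29, Rps13 and Rpl38) had means between 23.4 and 756, and their median SD over arrays was 0.36 on the log2 scale, against 0.17 for the 19 bright genes.

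The 8 untested genes were Rpl32, Rpl35a, Rpl39, Rpl39l, Rps14, Rps15, Rps20 and Rps27l. Their signals lay between 1.0 and 51.9 on every array. Rps14, a small-subunit protein lost in a human anaemia, had 3.9 and 17.4 in HEL-treated and 8.4 and 4.3 in unstimulated IgMG cells, and 4.1 and 21.1 in HEL-treated and 5.1 and 3.5 in unstimulated IgM cells. Signal depends on each probe set, so it does not order the genes by mRNA, and a dim probe set does not show that its mRNA was scarce. Rplp1, Rplp2, Rps6, Rps27a, Rpl5, Rpl11, Rpl10, Rpl3 and Rpl22l1 had no probe set with 1 symbol and are not analysed here.

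**Figure D1:**
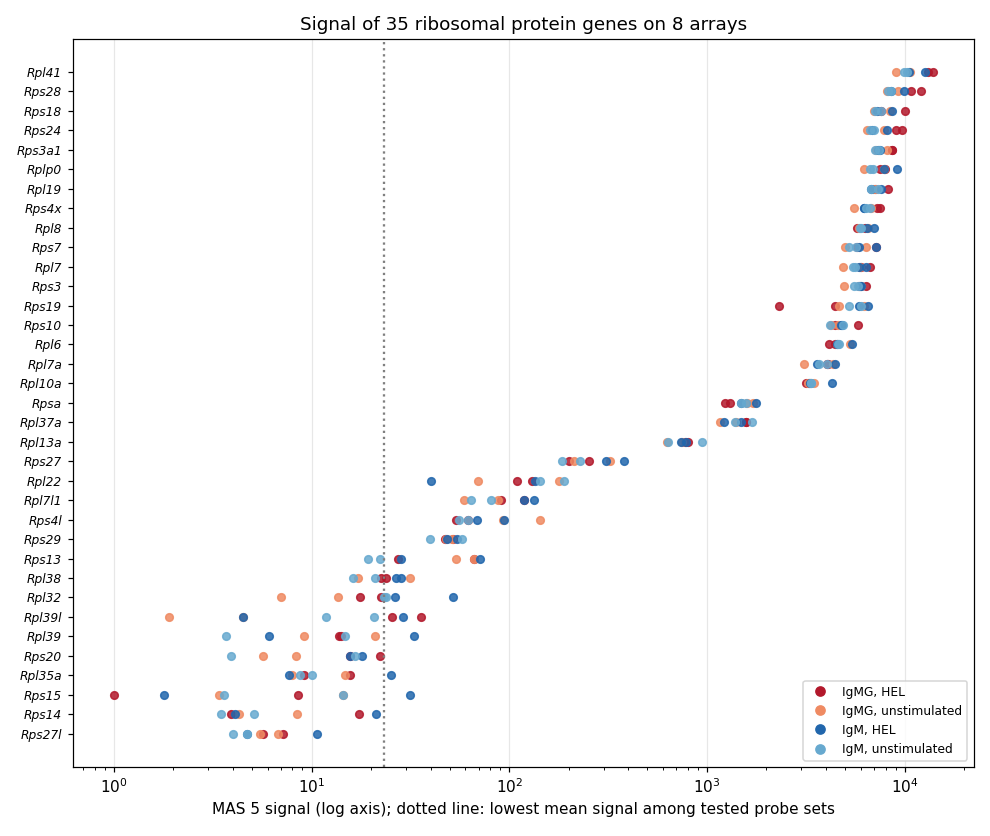
MAS5 signal of each of the 35 members on each of the 8 arrays (log axis), one row per gene in order of mean signal, coloured by group, with a dotted line at the lowest mean signal tested. The 19 genes above 1000 span at most 2.82-fold over the arrays, and the 8 untested genes lie at or below 51.9.

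The response to HEL in IgMG cells asked whether antigen changed ribosomal protein mRNAs in cells with the chimeric receptor. No member passed the test: limma called 0 of 27 higher and 0 lower at an adjusted p of 0.05. Of all tested probe sets 5.39% were called, 3.1% higher and 2.29% lower. The unadjusted limma p was under 0.05 for 6 of 27 members and for 1662 of 7453 tested probe sets. The median log2 change of the 27 members was 0.14, against -0.05 over all tested probe sets, with 18 positive and 9 negative and a range of -0.83 to 0.46; after quantile normalization the median was -0.02. Small-subunit genes had a median of 0.17 and large-subunit genes of 0.14. For 23 of the 27 genes the 95% interval stayed within a 2-fold change either way, and the exceptions were Rpl22, Rps13, Rps19 and Rps4l. Log2 changes are differences of log2(signal + 16), each ± SE of the fit, and understate the change of dim genes.

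Rpl41 had signals of 13838 and 13146.5 in HEL-treated IgMG cells, against 9058 and 10623 in unstimulated IgMG cells. Both HEL-treated arrays were above both unstimulated arrays, by a log2 difference of 0.46 ± 0.13 (limma adjusted p = 0.0803). The call depended on the scaling and the arrays. The adjusted p was 0.0456 with each array centred on its median, 0.0295 without both arrays that stood apart and 0.0304 with the Gapdh ratio as a covariate, whereas quantile normalization gave -0.03 with an adjusted p = 0.899.

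Rps28 had signals of 12153 and 10765 in HEL-treated IgMG cells, against 8123 and 9233 in unstimulated ones. These groups did not overlap either, and the log2 difference was 0.40 ± 0.13 (limma adjusted p = 0.108). Another bright Rps28 probe set differed by 0.26, with a limma adjusted p = 0.288. Rps24, also of the small subunit, had 9706 and 9089 in HEL-treated and 6465 and 7898 in unstimulated IgMG cells, which differed on the log2 scale by 0.39 ± 0.14 (limma adjusted p = 0.139), which passed at 0.0435 without both arrays that stood apart. The probe sets of Rpl41 and Rps28 are of the family type, which can detect related sequences, and the Rps24 probe set cites the same source sequence as that of Rpl7, so these values may include other transcripts.

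In 4 genes both HEL-treated arrays were below both unstimulated ones: 3 of the small subunit and Rpl6 of the large subunit, with 4431 and 4132 in HEL-treated, against 4521 and 5312 in unstimulated IgMG cells, which differed on the log2 scale by -0.20 ± 0.14 (limma adjusted p = 0.451). Rps19, a protein needed to mature small-subunit rRNA and mutated in Diamond-Blackfan anaemia in humans, had 4462 and 2317 in HEL-treated IgMG cells, against 4636 and 6225 in unstimulated IgMG cells. The groups did not overlap, but the 2 HEL-treated arrays were far apart, and the log2 difference of -0.74 ± 0.27 had a limma adjusted p = 0.155. Without the first HEL-treated IgMG array it was -1.21 with an adjusted p = 0.0497, and without the second it was -0.27. Rpsa, a small-subunit protein also described as a laminin receptor, had 1314 and 1239 in HEL-treated and 1707 and 1598 in unstimulated IgMG cells, without overlap, and differed on the log2 scale by -0.37 ± 0.14 (limma adjusted p = 0.172). Rps4l, a dim relative of Rps4x, had 61.8 and 54.1 in HEL-treated and 93.2 and 142.6 in unstimulated IgMG cells, again without overlap, and differed by -0.83 ± 0.25 (limma adjusted p = 0.0908). Its other tested probe set differed by 0.10.

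Across the 27 genes, 9 had both HEL-treated IgMG arrays above both unstimulated ones and 4 had them below, those described above, against 23.7% above and 29.4% below over all tested probe sets. Summed T cell markers were 374 to 398 in HEL-treated and 498 to 544 in unstimulated IgMG cells, and summed marginal zone B cell markers 1063 to 1093 in HEL-treated and 1375 to 1433 in unstimulated IgMG cells. Not all genes followed their sum: of 4 tested T cell markers 3 were positive, with Cd5 called higher, and 1 negative. Of 5 marginal zone markers 1 was positive and 4 were negative. Their part in the response was not tested. Among the genes with widely described roles, Rps3, which lies where mRNA enters the ribosome, had 6341 and 5859 in HEL-treated and 4907 and 6028 in unstimulated IgMG cells, which overlapped. Rplp0, the base of the stalk that recruits translation factors, had 7949 and 7481 in HEL-treated and 6222 and 7879 in unstimulated IgMG cells and overlapped as well, with a log2 difference of 0.14 ± 0.14 (limma adjusted p = 0.631). Rpl13a, a large-subunit protein also described as a translational repressor outside the ribosome, had 800.0 and 773.7 in HEL-treated and 628.8 and 750.5 in unstimulated IgMG cells, without overlap, a log2 difference of 0.19 ± 0.20.

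In IgM cells the response to HEL was tested in the same way. Again limma called 0 of 27 members higher and 0 lower, where 14% of all tested probe sets were called, 6.7% higher and 7.27% lower. An unadjusted limma p under 0.05 was found for 2 of 27 members and for 2135 of 7453 tested probe sets. The median log2 change was 0.13, against -0.02 over all tested probe sets, with 23 positive and 4 negative and a range of -0.98 to 0.76; it was 0.054 after quantile normalization, 0.073 without the second HEL-treated IgM array and 0.014 with the Gapdh ratio as a covariate. Small-subunit genes had a median of 0.11 and large-subunit genes of 0.14. The interval stayed within 2-fold either way for 22 of 27 genes, and all 19 bright genes were among them; the exceptions were Rpl22, Rpl38, Rpl7l1, Rps13 and Rps27.

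The 2 genes with the smallest p in IgM cells were not among the bright ones. Rps27, a zinc-finger protein of the small subunit, had 309.1 and 382.4 in HEL-treated IgM cells, against 185.8 and 226.9 in unstimulated IgM cells. The groups did not overlap, and the log2 difference was 0.70 ± 0.24 (limma adjusted p = 0.0871). Leaving out the first or the second unstimulated IgMG array, which enters the estimate of the spread alone, gave an adjusted p = 0.0452 and 0.0453. Rpl7l1, a relative of Rpl7 linked to large-subunit assembly, had 119.3 and 134.0 in HEL-treated and 64.1 and 80.8 in unstimulated IgM cells, without overlap, a log2 difference of 0.69 ± 0.24 (limma adjusted p = 0.0879).

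Rpl7 itself, a bright large-subunit gene, had 5886 and 6343 in HEL-treated and 5508 and 5589 in unstimulated IgM cells. Its groups did not overlap either, at a log2 difference of 0.14 ± 0.13. Rplp0 had 7839 and 9122.5 in HEL-treated and 6674 and 6946 in unstimulated IgM cells, without overlap, a log2 difference of 0.31 ± 0.14 (limma adjusted p = 0.189). Wide errors were seen in 2 dim genes. Rps13, of the small subunit, had 28.2 and 71.4 in HEL-treated and 19.3 and 22.3 in unstimulated IgM cells, a log2 difference of 0.76 ± 0.40 (limma adjusted p = 0.250), and Rpl22, an RNA-binding protein needed for normal T cell development in mice, had 134.4 and 40.4 in HEL-treated and 143.6 and 189.8 in unstimulated IgM cells, a log2 difference of -0.98 ± 0.48 (limma adjusted p = 0.222). In both genes the second HEL-treated IgM array was far from its partner, and that array is the one with the high Gapdh ratio. Without it the difference was 0.27 for Rps13 and -0.27 for Rpl22, and with the Gapdh ratio as a covariate it was 0.67 for Rps13 and -0.24 for Rpl22. Without the first HEL-treated IgM array it was 1.25 for Rps13 and -1.68 for Rpl22. A further, dimmer tested probe set of Rpl22 had 11.9 and 22.2 in HEL-treated and 63.1 and 53.6 in unstimulated IgM cells. Both HEL-treated arrays were low on that probe set, which differed by -1.18 (limma adjusted p = 0.0969). Over the 27 genes, 11 had both HEL-treated arrays above and 2 had both below, against 27.6% and 30.6% of all tested probe sets. Summed T cell markers were 327 to 343 in HEL-treated and 260 to 264 in unstimulated IgM cells, and summed B cell markers 22770 to 25331 in HEL-treated and 27751 to 27797 in unstimulated IgM cells. Not all genes followed their sum: of 4 tested T cell markers 3 were positive, with Cd5 called higher, and 1 negative. Of 7 B cell markers 2 were positive and 5 negative, with Blk called higher and Cd22, Cd79b and Pax5 lower. Their part in this response was not tested either.

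**Figure D2:**
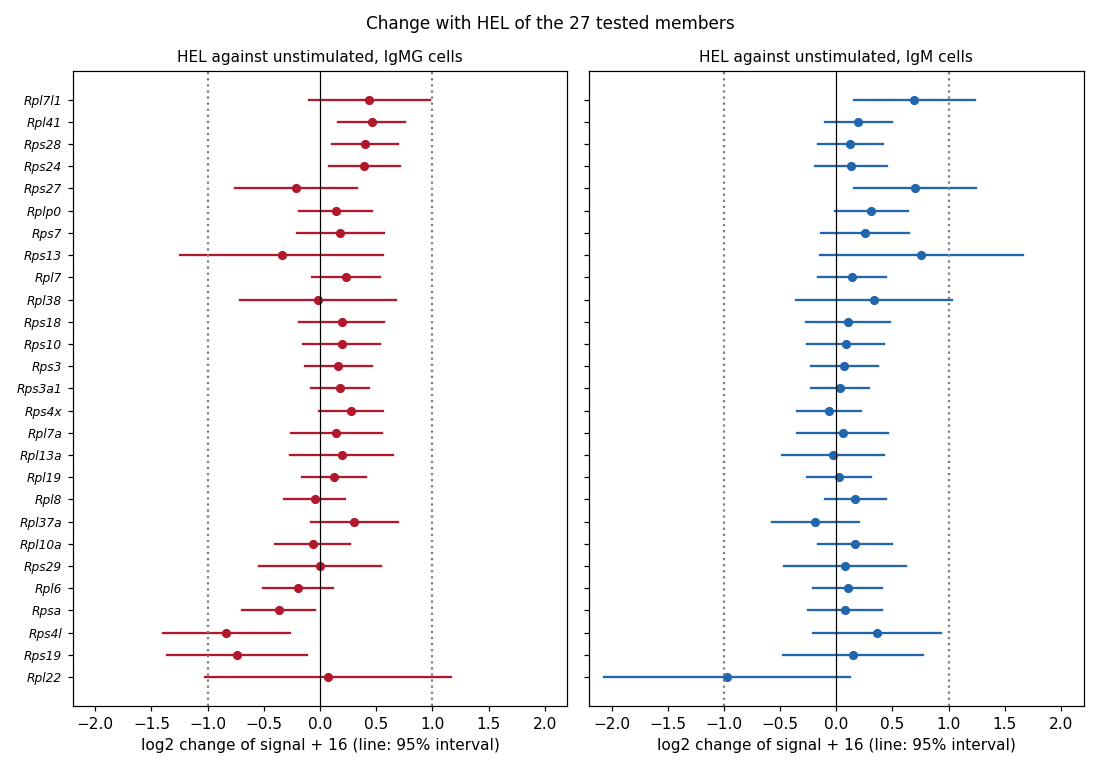
Log2 change with HEL of the 27 tested members in IgMG cells (left) and IgM cells (right), with points at the fitted change, lines for its 95% interval and dotted lines at a 2-fold change. Most bright genes lie close to 0 on both sides, while Rpl22 and Rps13 have wide intervals.

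The mean of both HEL responses used all 8 arrays and asked what the receptors had in common. Rpl41 rose by a log2 change of 0.33 ± 0.09 (limma adjusted p = 0.0371) and Rpl7l1 rose by 0.57 ± 0.17 (limma adjusted p = 0.0442), so 2 of 27 members were called higher and 0 lower, where 20.2% of all tested probe sets were called, 9.18% higher and 11% lower. In IgM cells Rpl41 had 10473 and 12681 with HEL, against 10235 and 9873 without, a smaller and non-overlapping difference of 0.20 ± 0.13. In IgMG cells Rpl7l1 had 90.5 and 118.3 with HEL, against 87.7 and 59.3 without, a difference of 0.44 ± 0.24 (limma adjusted p = 0.325). Rps28 followed at 0.26 ± 0.09 (limma adjusted p = 0.0730), Rps24 at 0.26 ± 0.10 (limma adjusted p = 0.0981) and Rplp0 at 0.23 ± 0.10 (limma adjusted p = 0.154).

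Neither call was firm. Quantile normalization gave Rpl41 a change of 0.01 (adjusted p = 0.913), and with 1 array left out at a time its change was 0.26 to 0.40 and passed in 2 of 8 fits, those without the second unstimulated IgMG or the first HEL-treated IgM array. Rpl7l1 had 0.45 to 0.68 and passed in 1 of 8, the fit without the first unstimulated IgMG array, and the highest adjusted p was 0.116 for Rpl41 and 0.157 for Rpl7l1. Over all 27 members the median mean response was 0.10 (-0.0071 after quantile normalization), against -0.04 over all tested probe sets, and the 95% interval of 26 genes stayed within 2-fold, with Rpl22 as the exception. For 18 of the 19 bright genes it stayed within 1.5-fold.

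**Figure D3:**
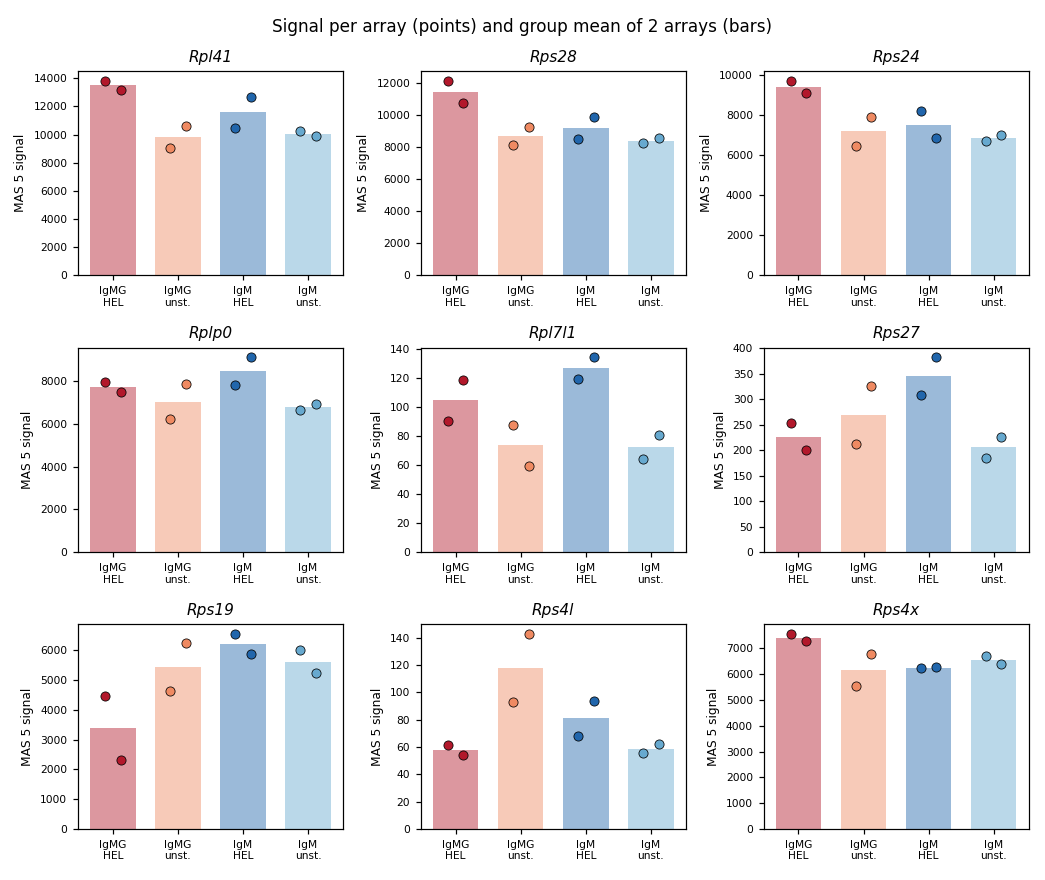
MAS5 signal of 9 members on each array (points) with the mean of the 2 arrays of each group (bars, axes from 0), groups in the order IgMG with HEL, IgMG unstimulated, IgM with HEL, IgM unstimulated. Rpl41 and Rps28 are highest with HEL in IgMG cells, Rpl7l1 is higher with HEL in both kinds of cell, and the bars of Rps4l differ in direction between the receptors.

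The difference between the receptors in their response to HEL was tested directly. Limma called 0 of 27 members, as it called 0% of all tested probe sets, with 3 members and 750 probe sets at an unadjusted p under 0.05. The median difference, IgMG minus IgM, was 0.09 with 14 genes positive and 13 negative, and it was -0.04 after quantile normalization. Rps4l had the smallest p, at -1.20 ± 0.35 (limma adjusted p = 0.414), while its other, dimmer tested probe set had -0.11. Rps27 followed at -0.91 ± 0.34 (limma adjusted p = 0.464): in IgMG cells it had 252.8 and 199.8 with HEL, against 212.4 and 325.2 without. Rps19 and Rpsa differed by -0.88 ± 0.39 and -0.45 ± 0.20 (limma adjusted p = 0.485 for each), where Rps19 had -1.35 to -0.41 with 1 array left out, and Rpl37a, a large-subunit zinc-finger protein, by 0.49 ± 0.24 (limma adjusted p = 0.497).

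These differences were less precise than the responses themselves. The 95% interval stayed within 2-fold for 19 of 27 genes, and within 1.5-fold for 4 of the 19 bright ones. Both HEL-treated arrays were above both unstimulated arrays in both kinds of cell for 3 genes. The arrays separated in opposite directions for 2 genes, Rps4l and Rps4x, and overlapped in both kinds of cell for 6. The same counts over all tested probe sets were not made, so nothing particular to the members is read from them.

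Without HEL, the comparison of the receptors asked whether the chimera alone went with other ribosomal protein mRNA levels. Limma called 0 of 27 members and 0% of all tested probe sets, with 2 members and 344 probe sets at an unadjusted p under 0.05. The median log2 difference, IgMG minus IgM, was 0.03, against 0.01 over all tested probe sets, and the 19 bright genes lay between -0.26 and 0.10. The interval stayed within 1.5-fold for 17 of these 19. The smallest p belonged to dim genes: Rps4l had 93.2 and 142.6 in unstimulated IgMG cells, against 55.7 and 62.1 in unstimulated IgM cells, a difference of 0.81 ± 0.25 (limma adjusted p = 0.965), and Rps13 had 66.5 and 53.7, against 19.3 and 22.3 in unstimulated IgM cells, a difference of 1.04 ± 0.40 (limma adjusted p = 0.992). Neither pair of groups overlapped. The other, dimmer tested probe set of Rps4l differed by -0.10. Of 27 genes, 3 had both IgMG arrays above both IgM arrays and 0 had them below, against 16.5% and 15.1% of all tested probe sets. Rpl37a, Rps27 and Rpl22 had differences of -0.26 ± 0.17, 0.33 ± 0.24 and -0.49 ± 0.48 (limma adjusted p = 0.995 for each), and leaving out the second unstimulated IgMG array turned that of Rpl22 to 0.11 and left 0.045 for Rps27, which had 0.62 when the first was left out.

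With HEL, limma again called 0 of 27 members between IgMG and IgM cells, against 0.0134% of all tested probe sets (1 of 7453), with 5 members and 1037 probe sets at an unadjusted p under 0.05. The median difference was 0.02, and -0.035 after quantile normalization. Rps19 had 4462 and 2317 in HEL-treated IgMG cells, against 6537 and 5880 in HEL-treated IgM cells, a difference of -0.94 ± 0.27 (limma adjusted p = 0.242), which was -1.41 when the first HEL-treated IgMG array was left out and -0.47 when its partner was. Rps28 had 12153 and 10765, against 8509 and 9883 in HEL-treated IgM cells, a difference of 0.32 ± 0.13 (limma adjusted p = 0.321). Both genes separated the groups, in opposite directions. Rps27, Rpsa and Rps24 differed by -0.58 ± 0.24, -0.34 ± 0.14 and 0.33 ± 0.14 (limma adjusted p = 0.329, 0.336 and 0.339). Both IgMG arrays were above both IgM arrays in 6 genes and below them in 9, against 23.8% and 24.5% of all tested probe sets. Summed T cell markers were 374 to 544 on IgMG and 260 to 343 on IgM arrays, and summed marginal zone B cell markers 1063 to 1433 on IgMG and 754 to 994 on IgM arrays. With HEL, summed erythroid markers were 17481 to 21413 on IgMG and 14484 to 17088 on IgM arrays, and summed myeloid markers 6595 to 7096 on IgMG and 2030 to 5068 on IgM arrays. Summed NK cell markers were 499 to 574 on IgMG and 247 to 340 on IgM arrays with HEL, and 287 to 2236 on IgMG and 227 to 274 on IgM arrays without, with all 6 tested NK markers positive in both comparisons. Summed B cell markers were 24584 to 27171 on unstimulated IgMG and 27751 to 27797 on unstimulated IgM arrays. Of 4 tested T cell markers 3 were positive and 1 negative in both comparisons. All 5 marginal zone markers were positive without HEL, against 3 positive and 2 negative with HEL. The part of these cells in the receptor comparisons was not tested.

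On single arrays, the 27 tested members held 4.50% and 4.14% of the summed signal in HEL-treated IgMG cells, 3.74% and 4.32% in unstimulated IgMG cells, 4.11% and 4.40% in HEL-treated IgM cells and 4.01% and 3.95% in unstimulated IgM cells. The groups overlapped in IgMG cells and did not in IgM cells, and with 2 arrays a group the smallest p of an exact permutation test is 0.333. Of the 19 bright genes, 9 had their highest signal on the first HEL-treated IgMG array and 7 on the second HEL-treated IgM array, while 11 had their lowest on the first unstimulated IgMG array and 5 on the second HEL-treated IgMG array. Most bright genes had a positive change with HEL, but not all: 14 were positive and 5 negative in IgMG cells. In IgM cells 17 were positive and 2 negative, and in the mean response 16 and 3.

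The top of the signal distribution also differed between arrays. The 99th percentile of all signals was 3525 and 3341 in HEL-treated IgMG cells, 3089 and 3073 in unstimulated IgMG cells, 3116 and 3331 in HEL-treated IgM cells and 3198 and 3113 in unstimulated IgM cells. It was higher on both HEL-treated IgMG arrays than on both unstimulated ones and overlapped between the IgM groups, the reverse of the members' share, and its part in the small positive medians of the bright genes was not tested. In RNA of pooled cells, a change in the share of a kind of cell and a change of mRNA per cell cannot be told apart, and scaling each array to a fixed average removes any change of total RNA per cell.

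**Figure D4:**
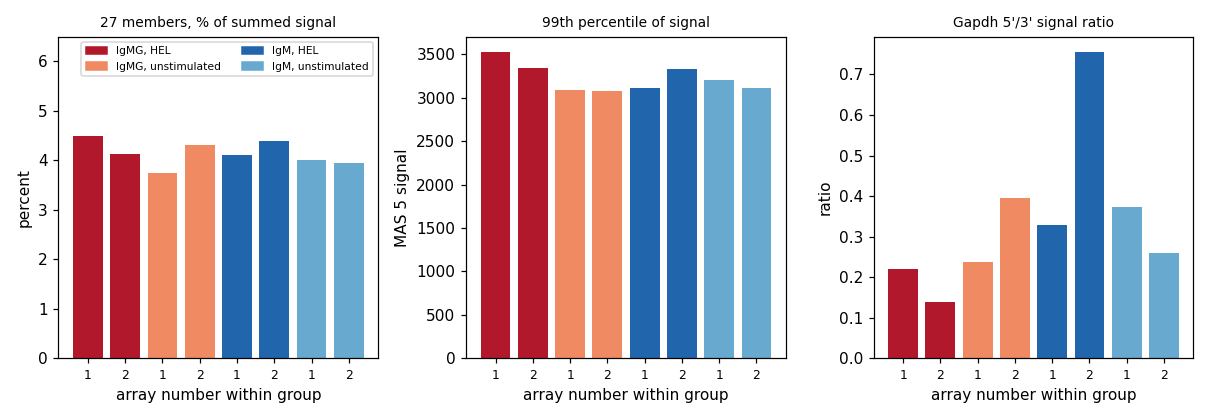
Per array, in the order IgMG with HEL, IgMG unstimulated, IgM with HEL and IgM unstimulated: the share of summed signal held by the 27 tested members (percent), the 99th percentile of signal and the Gapdh 5′/3′ signal ratio. The member share lies between 3.74% and 4.50%, and the second HEL-treated IgM array has the highest Gapdh ratio, 0.755.

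Other genes of ribosome production and translation were set beside the members. These lists were chosen with earlier results of these data known, so their counts are no independent contrast with the members. Of 37 tested ribosome biogenesis genes, 12 were called higher and 0 lower with HEL in IgMG cells (median log2 change 0.65, with 31 positive and 6 negative), and 21 higher and 0 lower in IgM cells (median 0.99, with 36 positive and 1 negative), at the backgrounds given above. Gnl3, the nucleolar GTPase nucleostemin, had 775.2 and 857.6 with HEL, against 132.3 and 157.2 without, in IgMG cells, a change of 2.38 ± 0.21 (limma adjusted p = 0.000633). In IgM cells Gnl3 had 1085 and 1176 with HEL, against 108.0 and 164.1 without, a change of 2.94 ± 0.21 (limma adjusted p = 9.83e-05). Tsr1, which acts in assembly of the small subunit, had log2 changes of 1.73 ± 0.19 in IgMG and 1.82 ± 0.19 in IgM cells, both past the threshold. The count of called biogenesis genes in IgMG cells was 5 when the first HEL-treated IgMG array was left out, 3 when the second was, and 6 with the Gapdh ratio as a covariate; in IgM cells it was 12 without the second HEL-treated and 11 without the first unstimulated IgM array.

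Of 21 tested translation factor genes, 4 were called higher and 0 lower in IgMG cells (median 0.23) and 8 higher and 0 lower in IgM cells (median 0.59). Without either HEL-treated IgMG array, or with the Gapdh ratio as a covariate, 2 were called in IgMG cells. In IgM cells the count was 4 without either HEL-treated IgMG array, 3 without the second HEL-treated IgM array, 2 when the first unstimulated IgM array was dropped and 4 when its partner was, 3 without both arrays that stood apart and 4 with the Gapdh ratio as a covariate. Etf1, the factor that ends translation at stop codons, changed by 1.41 ± 0.14 in IgMG and 1.62 ± 0.14 in IgM cells, and Eif2s2, a subunit of the factor that brings the initiator tRNA, by 1.30 ± 0.24 in IgMG and 1.31 ± 0.24 in IgM cells. The 16 tested genes of other TOP mRNAs, which share the start motif but are no ribosomal proteins, had 0 calls in IgMG cells (median 0.20) and 1 in each direction in IgM cells (median 0.32). There Npm1, a nucleolar chaperone, rose by 0.56 ± 0.13 (limma adjusted p = 0.0252), and Eef1b2, an elongation factor subunit, fell by 0.91 on the log2 scale (SE 0.22, limma adjusted p = 0.0255).

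Mitochondrial ribosomal proteins, which form the separate ribosome of that organelle, had 58 tested genes. In IgMG cells 0 were called higher and 4 lower with HEL (Mrpl28, Mrpl34, Mrpl44 and Mrps34), with a median of -0.09. In IgM cells Mrpl50 was called higher and Mrpl18 and Mrpl43 lower, with a median of -0.05. These few calls were not firm. In IgMG cells 0 were called without either array of its own 2 groups, without either unstimulated IgM array or with the Gapdh ratio as a covariate, 2 were called without both arrays that stood apart, and 3 without either HEL-treated IgM array. In IgM cells 0 were called without the second HEL-treated or the first unstimulated IgM array. The count was 1 when the other unstimulated IgM array was dropped, without both arrays that stood apart or with the Gapdh ratio as a covariate. Of 9 tested genes of the mTORC1 and S6 kinase pathway, 0 were called in IgMG cells and 1 was called higher in IgM cells: Larp1, the TOP-binding protein, rose by 0.89 ± 0.19 (limma adjusted p = 0.0166). Whether a list's change differs from that of the members was not tested.

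**Figure D5:**
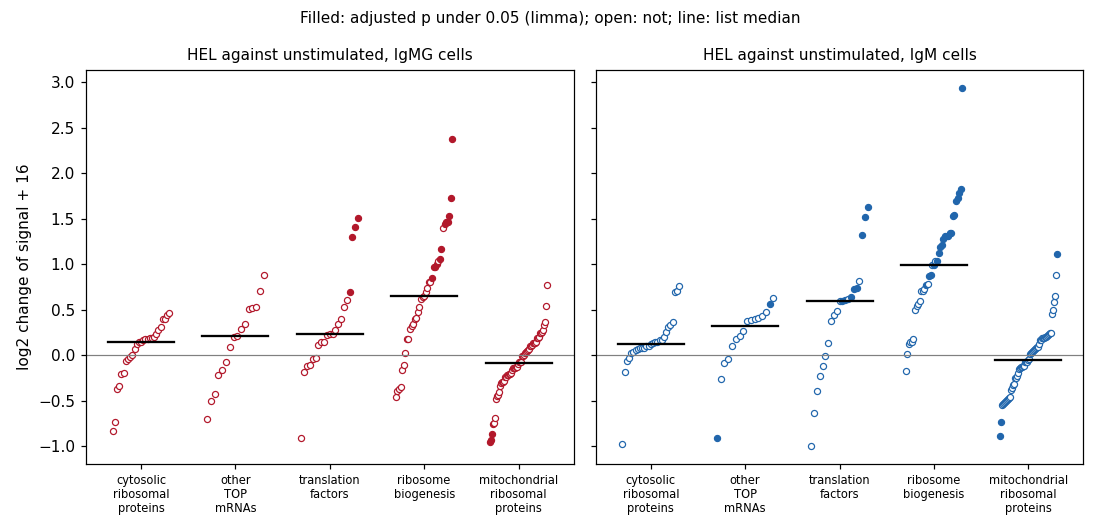
Log2 change with HEL of each tested gene of 5 lists in IgMG cells (left) and IgM cells (right), sorted within a list; filled points passed an adjusted p of 0.05, open points did not, and lines mark list medians. The 27 cytosolic ribosomal protein genes have no filled point on either side, and the 37 ribosome biogenesis genes have 12 in IgMG and 21 in IgM cells. The lists were chosen with earlier results of these data known.

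Probe sets annotated with several symbols, of which a ribosomal protein gene was one, were counted apart because they name no single gene. Of 39 such probe sets 35 were tested, and limma called 0 of them in either response to HEL, with a median log2 change of 0.11 in IgMG and 0.15 in IgM cells. Where a member had a further tested probe set, both could disagree. Rpl10a, of the large subunit, differed with HEL by -0.07 in IgMG and 0.17 in IgM cells on its brightest probe set and by 0.42 in IgMG and -0.46 in IgM cells on the other, so no direction is given for it.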

How the data were processed

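The deposited values were linear intensities, 1 for each probe set on each array, computed by the authors with MAS5 per the submitters' processing notes. The values showed that arrays share a mean near 150.1 after trimming 2% at each end. Scaling of this kind presumes similar totals on every array. Its settings were not given in the sources used here. The 66 control probe sets were left out, the brightest 60% of 12422 by mean over 8 arrays were kept (7453, lowest mean 23.2), and log2(signal + 16) was fitted.

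Symbols came from the platform annotation of 2016 (10833 probe sets with 1 symbol, 396 with several and 1193 with none); 35 of 35 members matched GRCm38.p6 by gene identifier and 0 symbols changed. Tests were two-sided in limma 3.58.1 (R 4.3.3), with a coefficient per group, eBayes with a trend (4 residual and 4.87 prior degrees of freedom) and Benjamini-Hochberg adjustment over all 7453 probe sets at 0.05. Nothing in the labels shows that replicates came from independent experiments beyond their numbering, so p-values measure the spread between these arrays, and 2 arrays a group limit the precision. Scripts were tested on simulated data. Python 3.11.15 and matplotlib 3.10.9 drew the figures.

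Members, lists and alternatives were chosen with earlier results of these data known. Named genes were the members called in a comparison, or the 5 with the smallest p, fixed genes of known role, paralog pairs, the brightest and dimmest members, and up to 3 of the largest changes per list.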

Additional observations from a re-analysis of the deposited data

Results flagged for a closer look

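In 2 of the 27 tested genes, HEL-treated arrays separated from unstimulated ones in opposite directions in IgMG and IgM cells. Over all tested probe sets, 23.7% separated upward and 29.4% downward with HEL in IgMG cells. In IgM cells these shares were 27.6% and 30.6%. Rps4l, a dim gene, was lower with HEL in IgMG cells and higher in IgM cells (68.4 and 93.6 with HEL, against 55.7 and 62.1 without, in IgM cells). Its responses differed by -1.20 ± 0.35 on the log2 scale (limma adjusted p = 0.414). The other, dimmer tested probe set of Rps4l did not show this, with 0.10 in IgMG and 0.21 in IgM cells. Rps4x, the X-linked small-subunit gene, had 7546 and 7271 with HEL, against 5538 and 6771 without, in IgMG cells, and 6222 and 6258 with HEL, against 6698 and 6382 without, in IgM cells. Its responses differed by 0.34 ± 0.18 (limma adjusted p = 0.517). A further, much dimmer tested probe set of Rps4x, with signals of 10.7 to 53.2, did not show this either. It had -1.04 in IgMG and -0.55 in IgM cells, a difference of -0.49. Neither gene's difference passed the test on any of these probe sets. How many of all tested probe sets separate in opposite directions was not counted, so nothing particular to the members is read from this.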

How the results depend on the processing

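Counts of called members stayed within 1.5 times of the value above in 108 of 135 alternatives, medians within the spread of replicates in 117 of 125, and named genes kept direction and side of the threshold in 510 of 553; the cause of the changes below was not tested. For HEL in IgMG cells (0 called), 1 member was called with arrays centred on the median, 1 with the Gapdh ratio as a covariate, 2 without both arrays that stood apart, 2 at an adjusted p under 0.10, 2 by groups without overlap and a change of at least 1.5-fold, and 0 to 1 with 1 array left out. For HEL in IgM cells (0 called), 2 were called at 0.10, 4 by the rule without a test and 0 to 1 with 1 array left out. That rule called 2 members between the receptors without HEL and 1 with HEL. The share of all tested probe sets called was computed neither for that rule, nor at 0.10, nor for the other alternatives. Nothing particular to the members is read from these counts. For the mean response (2 called), 4 were called after centring, 1 after quantile normalization, 0 without the filter, 1 without the trend, 1 with plain probe sets, 4 at 0.10, 0 to 3 with 1 array left out and, as an alternative chosen after seeing the data, 0 when probe sets with several symbols were used. The difference of responses had 0 calls throughout. The median change in IgMG cells was -0.018 after quantile normalization and 0.06 to 0.25 with 1 array left out, and that in IgM cells 0.07 to 0.21. The median difference of responses was -0.040 after quantile normalization, -0.071 without the filter, 0.22 with the Gapdh ratio and -0.078 to 0.13 with 1 array left out. Between the receptors the median ranged from -0.05 to 0.10 without HEL and -0.03 to 0.08 with HEL when 1 array was left out, and was 0.17 with HEL and the Gapdh ratio as a covariate; the mean response had 0.06 to 0.15. Rpl41 in IgMG cells had -0.028 after quantile normalization, and Rpl22 between unstimulated IgMG and IgM cells had -1.09 to 0.11 with 1 array left out (0.11 without the second unstimulated IgMG array) and 0.11 without both arrays that stood apart. A replicate block on the experiment number gave 0 calls in the mean response (adjusted p = 0.0531 for Rpl41 and 0.0659 for Rpl7l1) and changed no other count. Correlations of same-numbered deviations lay between -0.16 and 0.02, which gave no sign of pairing by number but cannot exclude pairing. For the lowest correlation, between the unstimulated groups, crossed numbers gave 0 calls. The first unstimulated and second HEL-treated IgM arrays each pooled 2 mice, and the other IgM arrays 4 each. Crossed numbers were not tested for the responses to HEL. Dim signal limits Rpl22, Rps13 and the 8 untested genes.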

Other observations

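Control probe sets for the small-subunit ribosomal RNA, which are not used above, had signals on the 3′ set of 156.3 and 195.2 in HEL-treated IgMG cells, 506.8 and 124.0 in unstimulated IgMG cells, 294.0 and 125.3 in HEL-treated IgM cells and 234.8 and 233.3 in unstimulated IgM cells.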
